A study of Mus musculus with 6 samples.

Results

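The 48 genes described here make the proteins that copy DNA and divide cells, and they were followed in RNA from mouse small intestinal epithelium that lacks a pair of corepressors and in RNA from control epithelium. They are the rows of a gene count table whose Ensembl identifiers map to 48 named cell cycle and replication genes, among 55450 genes in all. By role, 11 load or start the replicative helicase (Mcm2 to Mcm7, Cdc6, Cdt1, Cdc45, Gins1 and Gins2), 6 act at the fork or on the new DNA (Pcna, Rfc4, Pola1, Prim1, Rpa2 and Uhrf1) and 4 make nucleotides (Tyms, Rrm1, Rrm2 and Tk1). These 21 are called the S phase members. A further 22 are the mitosis members, 10 regulators (Ccna2, Ccnb1, Ccnb2, Cdk1, Foxm1, Plk1, Aurka, Aurkb, Cdc20 and Ube2c) and 12 parts of chromosomes, kinetochores and spindles (Mki67, Top2a, Birc5, Bub1, Bub1b, Kif11, Kif20a, Cenpa, Cenpe, Cenpf, Nusap1 and Tpx2). The remaining 5, Ccnd1, Myc, Ccne1, Cdk2 and E2f1, regulate entry into S phase.

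By its title, the study concerns corepressor control of carbohydrate transport by the intestine. The 3 knockout mice carried Vil1-Cre-ERT2 and floxed alleles of both targeted genes, Ncor1 among them, and the 3 control mice carried the same floxed alleles without the Cre. Vil1-Cre-ERT2 is a Cre recombinase under the villin promoter that tamoxifen activates in intestinal epithelial cells. Both groups came from one cross and received intraperitoneal tamoxifen at 15 mg per 100 g body weight for 5 days at 8 to 9 weeks of age. They were watched for 20 days and entered metabolic cages at day 21. Only the knockouts carried the transgene, so the deletion and the transgene cannot be told apart. Epithelium was scraped from duodenum, jejunum and ileum with a glass slide, and which section each library came from is not given in the sources used here. Each library was polyA RNA of 1 mouse, named here by group and animal number.

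In the intestine, the cells that divide sit in the crypts: stem cells at the base and transit-amplifying cells above them, which stop dividing as they move onto the villus. Their cycle is run by cyclin-dependent kinases. D-type and E-type cyclins with CDK4, CDK6 and CDK2 inactivate the retinoblastoma family, which frees E2F factors to switch on the S phase genes. Later the MuvB complex, with B-MYB and FOXM1, switches on the mitotic genes through CHR elements in their promoters, and the CDK inhibitors of the Cip/Kip and INK4 families hold the kinases back.

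The promoters of the members differ by phase in these elements, and 6 RefSeq windows are shown as examples of each kind (GRCm38.p6, 250 bases before to 50 after the gene's start, read 5′ to 3′ on the gene's strand). Mcm5 and Mcm6 hold E2F-type letters, Ccnb2 and Plk1 hold CHR-type letters, Cdk1 holds both, and Pcna, the member called under every setting, holds neither. Capitals mark E2F-type letters (TTTCCCGC, TTTCGCGC, TTTGCCGC or TTTGGCGC) and CHR-type letters (TTTGAA or TTCGAA) on either strand. Matches in Mcm5 and Mcm6 overlap each other and appear as 1 run. The windows are Mcm5 at chr8:75109259-75109558 (plus strand), Mcm6 at chr1:128359656-128359955 (minus), Cdk1 at chr10:69352863-69353162 (minus), Ccnb2 at chr9:70421505-70421804 (minus), Plk1 at chr7:122159185-122159484 (plus) and Pcna at chr2:132253131-132253430 (minus).
Mcm5: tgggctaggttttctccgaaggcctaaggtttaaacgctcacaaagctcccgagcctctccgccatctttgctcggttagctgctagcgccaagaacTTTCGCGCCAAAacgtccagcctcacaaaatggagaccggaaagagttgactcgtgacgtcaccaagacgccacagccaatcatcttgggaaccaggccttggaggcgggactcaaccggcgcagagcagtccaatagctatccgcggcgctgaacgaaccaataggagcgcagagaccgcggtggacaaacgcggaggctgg
Mcm6: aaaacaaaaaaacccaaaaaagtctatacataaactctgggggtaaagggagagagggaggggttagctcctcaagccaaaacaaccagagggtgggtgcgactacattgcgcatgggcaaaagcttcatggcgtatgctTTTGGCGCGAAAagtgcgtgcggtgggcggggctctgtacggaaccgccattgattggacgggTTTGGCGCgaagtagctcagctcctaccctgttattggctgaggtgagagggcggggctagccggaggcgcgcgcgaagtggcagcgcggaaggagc
Cdk1: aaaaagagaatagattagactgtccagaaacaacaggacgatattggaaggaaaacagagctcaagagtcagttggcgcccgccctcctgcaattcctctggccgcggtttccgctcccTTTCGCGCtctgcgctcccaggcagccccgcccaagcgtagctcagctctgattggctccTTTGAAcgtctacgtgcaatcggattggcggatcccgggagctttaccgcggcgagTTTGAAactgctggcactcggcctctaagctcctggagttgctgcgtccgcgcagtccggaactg
Ccnb2: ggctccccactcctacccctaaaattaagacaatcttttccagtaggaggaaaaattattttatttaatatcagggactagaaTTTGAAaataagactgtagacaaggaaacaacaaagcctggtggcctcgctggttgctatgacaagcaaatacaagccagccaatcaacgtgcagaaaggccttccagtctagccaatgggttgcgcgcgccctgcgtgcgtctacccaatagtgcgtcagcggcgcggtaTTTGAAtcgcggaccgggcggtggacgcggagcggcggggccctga
Plk1: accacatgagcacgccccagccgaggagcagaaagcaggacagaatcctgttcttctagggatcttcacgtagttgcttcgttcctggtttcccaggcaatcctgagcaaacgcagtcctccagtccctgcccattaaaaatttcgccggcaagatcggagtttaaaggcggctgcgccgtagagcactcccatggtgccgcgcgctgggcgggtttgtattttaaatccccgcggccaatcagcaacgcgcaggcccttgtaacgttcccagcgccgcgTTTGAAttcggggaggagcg
Pcna: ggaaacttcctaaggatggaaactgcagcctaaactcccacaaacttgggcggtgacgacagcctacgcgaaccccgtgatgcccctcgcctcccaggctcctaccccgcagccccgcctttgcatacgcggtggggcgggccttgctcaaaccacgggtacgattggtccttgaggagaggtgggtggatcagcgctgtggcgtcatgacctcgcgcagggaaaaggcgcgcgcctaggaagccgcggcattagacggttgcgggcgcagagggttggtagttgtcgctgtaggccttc

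Of the 48 members 38 have an entry in the RefSeq table of promoters, and where a gene has a pair of windows it is counted if either holds the letters. E2F-type letters were in 8 of 18 S phase windows (44.4%) and 1 of 17 mitosis windows (5.88%), that of Cdk1, against 2.6% of 27025 promoters of the same length. CHR-type letters were in 13 of 17 mitosis windows (76.5%), Cdk1, Ccnb2, Plk1 and Mki67 among them, and 3 of 18 S phase windows (16.7%), against 21.7% of all promoters. CCAAT, searched on both strands and not capitalised above, was in 15 of 17 mitosis windows (88.2%) and 13 of 18 S phase windows (72.2%), against 41.1% of all. With 100 in place of 250 bases before the start, 22.2% of S phase and 0% of mitosis windows held E2F-type letters, and 11.1% and 76.5% held CHR-type letters. Of the 4 members called higher in the knockout, 3 have a window, and none of those, Pcna, Rfc4 and Tyms, holds E2F-type or CHR-type letters. A match is a stretch of letters and not evidence of binding.

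Total counts ran from 23476031 to 46835165 per library, and a floor of 3 counts corresponded to 0.0586 to 0.173 CPM (counts scaled to library size, with trimmed mean of M-values factors, TMM). Epithelial markers were abundant in all libraries, with summed levels over 8 genes of 9114, 13090 and 12689 CPM in knockouts 423, 476 and 477, against 12246, 12003 and 13421 CPM in controls 482, 483 and 486. That order of libraries is kept wherever values are given per library. Among the epithelial markers Vil1, whose promoter drives the Cre, was lower in the knockouts, at 891, 1547 and 1072 CPM, against 2786, 2925 and 2344 CPM in the controls (log2 fold change -1.20, adjusted p = 0.011), and Epcam lay below every control in each knockout without being called (log2 fold change -0.62, adjusted p = 0.07). Krt18 went the other way, above every control in each knockout and not called (log2 fold change 0.78, adjusted p = 0.054). Of the 8 epithelial markers 3 had positive and 5 negative log2 fold changes, and Vil1 was the 1 called. Ncor1 was lower in the knockouts, at 31.3, 36.4 and 22.5 CPM, against 140, 137 and 99.3 CPM in the controls. All 48 members passed the filter on low counts. They were thinly counted in some libraries: the median member had 234, 75.5 and 36 counts in the knockouts, against 221, 72 and 144 in the controls.

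Of the 48 members, 4 were higher in the knockout and none was lower (edgeR quasi-likelihood test, Benjamini-Hochberg adjusted p under 0.05 over 15028 genes). All 4 act in S phase: the sliding clamp Pcna, the helicase subunit Gins2, the clamp loader subunit Rfc4 and thymidylate synthase, Tyms. Across all genes tested 17.3% were higher and 18.3% lower in the knockout. At an unadjusted p under 0.05, 5 members were higher, with Rrm2 as the fifth, and 0 were lower. Of all 15028 genes, 7049 passed that level, both directions together. DESeq2 called 5 higher, again with Rrm2, and 0 lower, beside 3020 of 15028 genes higher and 2956 lower. The same 4 members were also those whose 3 knockout libraries lay above all 3 control libraries, and none lay below, where 23.9% of all genes lay above and 26.4% below. The median log2 fold change of the members was 0.30, with 33 positive and 15 negative, against -0.06 over all genes tested. Scaling by library totals alone moved the median of all genes by -0.44. Pcna was then the 1 member called, beside 1133 of 15028 genes higher and 4554 lower, and 26 members were negative. The p-values set the difference between genotypes against the spread between these mice, estimated with information shared across genes. The gut section of each library is not given. A difference in section among mice of 1 genotype would be part of that spread. A difference in section between the genotypes could not be told apart from the genotype.

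**Figure D1:**
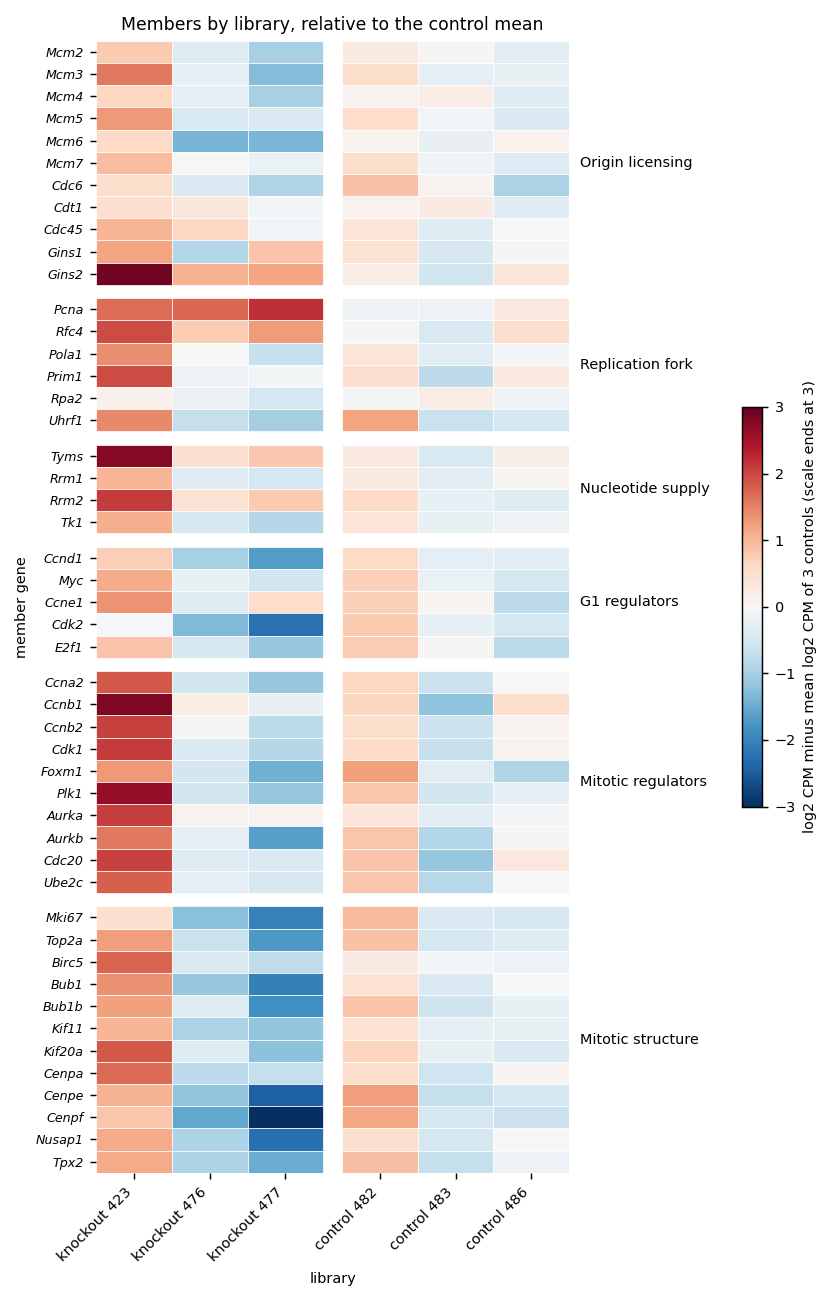
Each row is a member grouped by role, each column a library, and the colour is log2 CPM minus the mean log2 CPM of the 3 controls, in log2 units, with the scale ending at 3. The column of knockout 423 is red in nearly all rows and that of knockout 477 blue in most mitotic rows, while Pcna is red in all 3 knockout columns and near white in the controls.

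Pcna, the ring that holds DNA polymerases on the template, had the highest level per kilobase of exon among the members and was the only member called higher with any 1 library left out. It (ENSMUSG00000027342, mm10, chr2:132249162-132253314, minus strand) stood at 104, 107 and 149.7 CPM in the knockouts, against 29.3, 29.0 and 40.6 CPM in the controls. The knockout and control libraries were far apart, with the lowest knockout more than 2-fold above the highest control. The mean was 120.4 ± 25.4 CPM in the knockouts and 33.0 ± 6.63 CPM in the controls (SD, n = 3 each). The log2 fold change was 1.87 (SE 0.24, 95% interval 1.34 to 2.40, adjusted p = 0.00059). It stayed called under each of the settings tried and without any 1 library, at log2 fold changes of 1.41 to 2.04. Per kilobase of exon Pcna reached 50.2 CPM in the knockouts and 13.7 CPM in the controls, while no other member was above 5.32 CPM per kilobase in either group. The pseudogene Pcna-ps2, a near-copy elsewhere in the genome, was listed at 39.3, 37.4 and 56.3 CPM in the knockouts, against 11.9, 11.4 and 17.8 CPM in the controls, so how reads were split between gene and copy is uncertain.

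The other 3 called members were highest in knockout 423 and depended on which libraries were in the fit. Tyms, which makes thymidylate for DNA synthesis (ENSMUSG00000025747, chr5:30058202-30073617), stood at 25.7, 5.52 and 6.84 CPM in the knockouts, against 4.68, 2.80 and 4.45 CPM in the controls. Its log2 fold change was 1.67 (SE 0.54, adjusted p = 0.037). Knockout 423 was several times higher than the other knockout mice, which lay just above the highest control. Gins2, part of the GINS complex that activates the helicase (ENSMUSG00000031821, chr8:120578633-120589304), stood at 8.32, 2.33 and 2.53 CPM in the knockouts, against 1.31, 0.743 and 1.43 CPM in the controls (log2 fold change 1.91, SE 0.54, adjusted p = 0.022). Here too knockout 423 was the highest, and the other knockouts were nearer to the controls. Of the exon bases of Gins2, 67.3% overlap Gse1 on the other strand, which was not called (log2 fold change -0.28), and since no source used here states whether counting used strand, reads of the pair cannot be told apart. Rfc4, which helps load the clamp (ENSMUSG00000022881, chr16:23113943-23127737), stood at 11.9, 5.19 and 7.36 CPM in the knockouts, against 2.95, 2.20 and 4.41 CPM in the controls (log2 fold change 1.35, SE 0.38, adjusted p = 0.022). It shares 12.7% of its exon bases with Eif4a2 on the other strand, and reads of that pair cannot be told apart either. Eif4a2, with 5294% of the counts of Rfc4, was not called (log2 fold change 0.50, adjusted p = 0.11). Each knockout lay above every control in Eif4a2 too, at 310, 325 and 374 CPM, against 190, 252 and 274 CPM. Without knockout 423 none of the 3 passed: the log2 fold change was 0.66 for Tyms (adjusted p = 0.15), 1.09 for Gins2 (adjusted p = 0.084) and 1.00 for Rfc4 (adjusted p = 0.075). Without control 483 they also missed the threshold, at adjusted p = 0.11, 0.060 and 0.068 for Tyms, Gins2 and Rfc4, as did Tyms and Rfc4 without control 482 (adjusted p = 0.11 and 0.060) and Tyms without control 486 (adjusted p = 0.11).

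Among the other nucleotide genes, Rrm2, the regulated subunit of ribonucleotide reductase, stood at 14.8, 4.79 and 5.98 CPM in the knockouts, against 5.27, 2.94 and 2.69 CPM in the controls. The groups overlapped, since control 482 lay above knockout 476, and the log2 fold change of 1.23 (SE 0.45) missed the threshold (adjusted p = 0.059). It passed with DESeq2 (adjusted p = 0.017). Rrm1, the large subunit, and the salvage enzyme thymidine kinase Tk1 had log2 fold changes of 0.20 and 0.15 (adjusted p = 0.72 and 0.82).

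No other helicase gene was called. The 6 Mcm genes, which form the ring that unwinds DNA, had log2 fold changes of -0.40 (Mcm6) to 0.45 (Mcm3). Mcm2 stood at 7.78, 3.52 and 2.30 CPM in the knockouts, against 5.56, 4.59 and 3.59 CPM in the controls (log2 fold change -0.01, 95% interval -0.96 to 0.95). Mcm5 stood at 8.25, 2.39 and 2.47 CPM in the knockouts, against 4.91, 3.11 and 2.44 CPM in the controls (log2 fold change 0.33, 95% interval -0.80 to 1.46). In both genes knockout 423 was the highest of the 6 libraries and the other knockouts lay within or below the controls. The loading factors Cdc6 and Cdt1 and the helicase partners Cdc45 and Gins1 had log2 fold changes of -0.32, 0.26, 0.56 and 0.57. At the fork, the primase and polymerase alpha genes Prim1 and Pola1, the single-strand binding gene Rpa2 and Uhrf1, which recruits the maintenance DNA methyltransferase, had 0.84, 0.48, -0.16 and 0.09, none of them called.

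**Figure D2:**
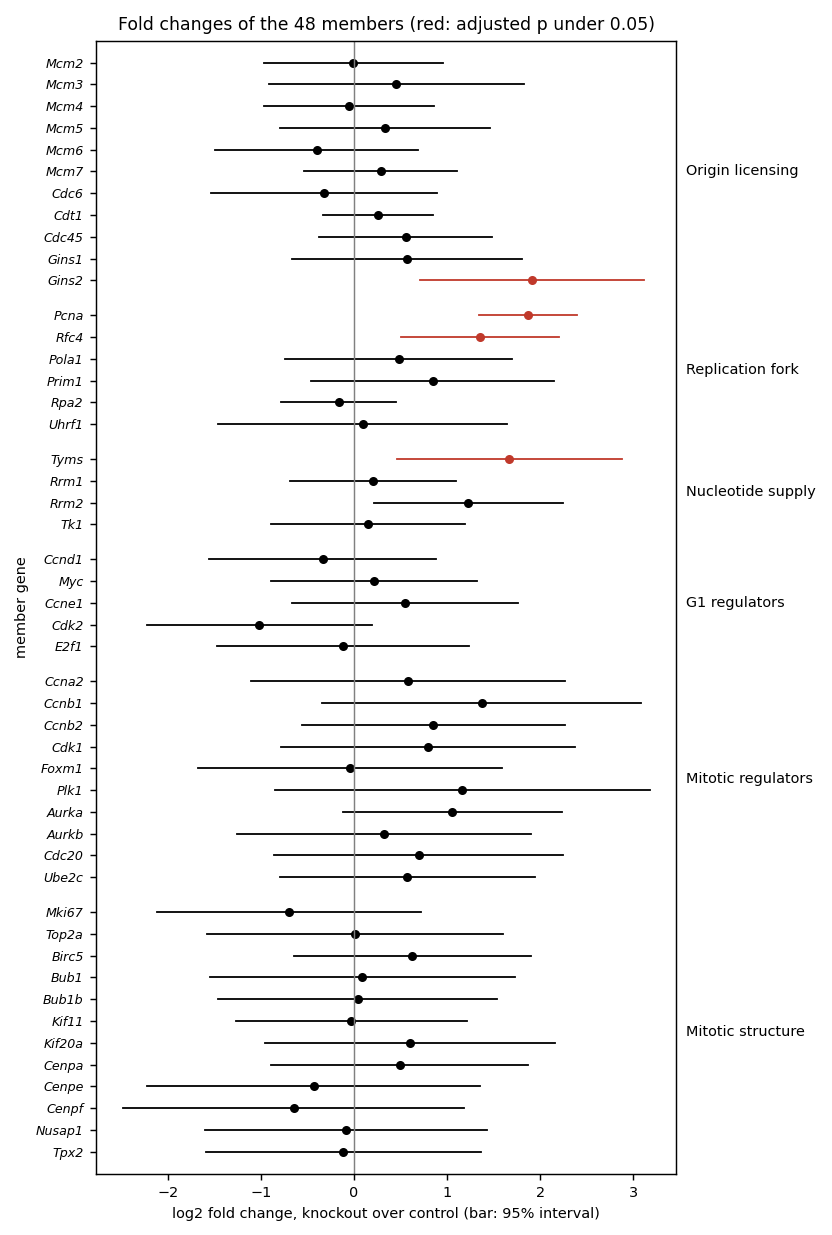
Points are log2 fold changes, knockout over control, from edgeR, bars are 95% intervals, and red marks an adjusted p under 0.05. The 4 red members are Gins2, Pcna, Rfc4 and Tyms, Pcna has the shortest bar of them, and the bars of all mitotic members cross 0.

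No mitosis member was called. None of the 22 reached an unadjusted p under 0.05 in edgeR, where 7049 of all 15028 genes did. DESeq2 called 0 after adjustment, with 2 at an unadjusted p under 0.05 and 1 given no adjusted p. The 10 regulators had a median log2 fold change of 0.75, with 9 positive, and the 12 structural genes one of -0.01, with 6 positive and 6 negative. Cyclin B1, Ccnb1, which activates CDK1 for mitotic entry, stood at 10.8, 1.79 and 1.32 CPM in the knockouts, against 2.47, 0.675 and 2.23 CPM in the controls. Its log2 fold change of 1.37 had a 95% interval of -0.34 to 3.08 (adjusted p = 0.19). Knockout 423 was above all controls and both other knockouts lay below control 482. Cdk1 itself stood at 18.2, 3.16 and 2.36 CPM in the knockouts, against 6.41, 2.67 and 4.63 CPM in the controls (log2 fold change 0.80, adjusted p = 0.4). Plk1, a kinase of spindle assembly and mitotic exit, stood at 11.9, 1.30 and 0.863 CPM in the knockouts, against 3.39, 1.28 and 1.62 CPM in the controls (log2 fold change 1.16, adjusted p = 0.33). For Plk1 the highest and lowest of the 6 libraries were both knockouts.

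Among the structural genes, Mki67, which coats mitotic chromosomes and is the usual marker of cycling cells, stood at 16.4, 4.89 and 2.88 CPM in the knockouts, against 22.6, 8.54 and 8.26 CPM in the controls. Control 482 was the highest library and knockouts 476 and 477 the lowest. The log2 fold change was -0.70 (95% interval -2.11 to 0.72, adjusted p = 0.41). Topoisomerase II alpha, Top2a, which untangles sister chromatids, stood at 22.0, 5.82 and 2.76 CPM in the knockouts, against 17.0, 6.35 and 7.19 CPM in the controls (log2 fold change 0.01, 95% interval -1.58 to 1.60). Survivin, Birc5, a subunit of the chromosomal passenger complex, stood at 29.9, 6.45 and 5.23 CPM in the knockouts, against 10.6, 8.54 and 7.93 CPM in the controls (log2 fold change 0.62, adjusted p = 0.41). The kinetochore gene Cenpf stood at 2.42, 0.465 and 0.173 CPM in the knockouts, against 3.08, 0.946 and 0.879 CPM in the controls (log2 fold change -0.65, adjusted p = 0.56). In Top2a and Birc5 knockout 423 was the highest library, in Cenpf control 482, and in all 4 genes knockout 477 was the lowest. The 95% interval of each of these 4 genes takes in changes of more than 2-fold in at least 1 direction, so a missed threshold does not show equal levels.

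The 5 regulators of S phase entry were not called either. Cyclin D1, Ccnd1, which links growth signals to the cycle, stood at 12.9, 3.89 and 2.42 CPM in the knockouts, against 11.8, 6.35 and 6.25 CPM in the controls (log2 fold change -0.34, adjusted p = 0.65). The transcription factor gene Myc, which growth signals induce, stood at 6.15, 2.43 and 1.90 CPM in the knockouts, against 4.64, 2.47 and 1.97 CPM in the controls (log2 fold change 0.21, adjusted p = 0.76). E2f1, an activator of the S phase genes, stood at 1.38, 0.532 and 0.345 CPM in the knockouts, against 1.29, 0.777 and 0.430 CPM in the controls (log2 fold change -0.12, adjusted p = 0.89). In all 3 genes the knockout libraries reached both above and below the controls. Cdk2, the kinase partner of cyclins E and A, had a log2 fold change of -1.02 (adjusted p = 0.17) and cyclin E1, Ccne1, one of 0.55 (adjusted p = 0.45). Ccnd1 shares 23.4% of its exon bases with LTO1 on the other strand. LTO1 had 159, 331 and 114 counts in the knockouts, against 824, 472 and 681 counts in the controls. Among the mitosis members Kif20a shares 29.3% with Cdc23, which had 311% of its counts, and Ube2c 22.8% with Tnnc2, which had 0.523%. Cdc45, Cdc20, Ccna2 and Plk1 share 5.96%, 2.84%, 12.5% and 7.09% with opposite-strand genes that had more counts than they did. Reads of such pairs cannot be told apart here either.

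Most members ranked the mice in much the same order. Knockout 423 held the highest level of the 6 libraries in 41 of the 48 members (85.4%), against 19.2% of all genes tested, and the highest knockout level in 47. Knockout 477 held the lowest level of the 6 in 29 members (60.4%), against 24.8% of all genes. Knockout 423 lay above every control in 42 members (87.5%), against 37.7% of all genes. Knockout 477 lay below every control in 31 members (64.6%), against 43.7% of all genes, and knockout 476 in 20 (41.7%), close to the 37.2% of all genes. The controls were ordered too: control 482 was the highest control in 41 members (85.4%), all 22 mitosis members included, against 36.9% of all genes. The range between the highest and lowest knockout had a median of 2.18 log2 units over the members, against 0.62 over all genes, and the range between controls one of 1.05, against 0.64. Members measured in the same libraries are not independent of each other, so these counts describe the mice and not 48 separate observations. In bulk RNA, fewer dividing cells and less RNA of these genes per cell cannot be told apart.

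Averaged over members, the mean log2 CPM of the S phase members was 3.15, 1.83 and 1.72 in the knockouts, against 2.20, 1.62 and 1.74 in the controls. The group means were 2.23 ± 0.79 in the knockouts and 1.85 ± 0.31 in the controls (SD, n = 3 each). For the mitosis members the library means were 3.23, 1.07 and 0.41 in the knockouts, against 2.39, 1.08 and 1.51 in the controls, and the group means 1.57 ± 1.47 in the knockouts and 1.66 ± 0.66 in the controls. In both phases knockout 423 was the highest library. Knockouts 476 and 477 lay among the controls in S phase, while in mitosis knockout 476 lay level with the lowest control and knockout 477 below all controls. The knockout minus control difference was 0.38 for S phase and -0.09 for mitosis, smaller than the SD between knockout mice in each case. The 5 regulators of S phase entry averaged 2.12, 0.68 and 0.37 in the knockouts, against 2.04, 1.22 and 0.78 in the controls.

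The S phase members were set against the mitosis members within each library. The S phase mean minus the mitosis mean was -0.08, 0.76 and 1.31 in the knockouts, against -0.18, 0.53 and 0.23 in the controls, or 0.66 ± 0.70 in the knockouts and 0.19 ± 0.36 in the controls (SD, n = 3 each). Knockouts 476 and 477 had the 2 highest values and the groups overlapped through knockout 423, so the difference of 0.47 is within the spread between mice. With the 4 called members left out the S phase minus mitosis values were -0.41, 0.44 and 0.87 in the knockouts, against -0.20, 0.49 and 0.03 in the controls, and knockout 476 then lay below control 483. The difference between genotypes was then 0.19. Those 4 were picked as higher in these same data, so leaving them out must lower the S phase difference between genotypes. Relative to the control mean, knockout 423 was 1.57 log2 units higher in the mitosis members, while knockouts 476 and 477 averaged 0.92 lower. In the S phase members those last 2 mice differed from the control mean by -0.08, or by -0.37 with the 4 called members left out.

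**Figure D3:**
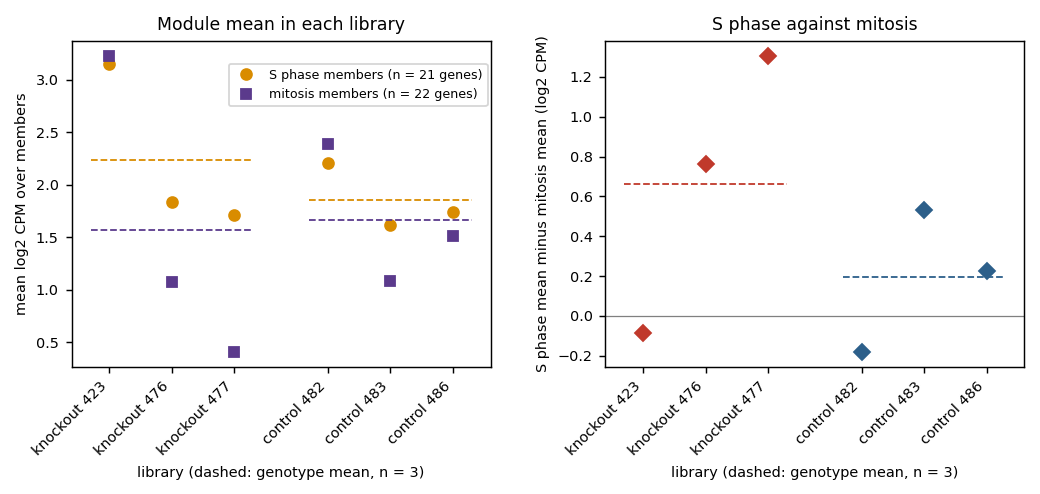
The left panel gives the mean log2 CPM over the 21 S phase members (circles) and the 22 mitosis members (squares) in each library, and the right panel their difference, with dashed lines for the mean of the 3 libraries of each genotype. Knockout 423 is highest in both sets and knockout 477 lowest in mitosis at 0.41, and the difference runs from -0.08 to 1.31 in the knockouts and -0.18 to 0.53 in the controls.

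The balance of the members depended on single libraries, and without knockout 423 it turned round. In that fit of 2 knockouts against 3 controls, 38 of the 48 log2 fold changes were negative, with a median of -0.64. Pcna was the 1 member still higher (log2 fold change 1.99, adjusted p = 0.0018), and 4 members were lower: Mcm6 (-1.36, adjusted p = 0.0093), Cdk2 (-1.76, adjusted p = 0.034), Mki67 (-1.71, adjusted p = 0.040) and Ccnd1 (-1.32, adjusted p = 0.041). Across all genes in that fit 12.2% were higher and 13.2% lower. All but 1 of the 22 mitosis members had a negative fold change there, and 8 had an unadjusted p under 0.05. The share of all genes at that unadjusted level was not taken in this fit, so the 8 cannot be set against it. Without control 482, the highest control in most members, the shift went the other way. There 5 of the 48 log2 fold changes were negative and the median was 0.72, with Pcna, Gins2 and Rrm2 called higher. Over all genes in that fit, 1510 of 15136 were higher and 1789 lower.

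The summed level of crypt stem cell markers ranked the mice as the mitosis members did, but single markers did not all follow. The summed level of 14 stem cell markers was 281, 90.8 and 77.1 CPM in the knockouts, against 228, 113 and 143 CPM in the controls, the same order of libraries within each genotype as the mitosis members. In knockout 423 most of it was Olfm4, a secreted crypt base glycoprotein, which stood at 189, 26.3 and 28.3 CPM in the knockouts, against 78.3, 25.4 and 49.4 CPM in the controls. Without Olfm4 the sum was 91.2, 64.5 and 48.8 CPM in the knockouts, against 149, 87.2 and 93.2 CPM in the controls, so that knockout 423 then lay under controls 482 and 486. Knockout 423 was the highest library in 2 of the 14 markers, Olfm4 and Ephb2, and control 482 in the other 12. Lgr5, the receptor that defines the crypt base stem cells, had 6, 2 and 0 counts in the knockouts, against 57, 19 and 11 counts in the controls, too few to be tested. Of 12 stem markers tested 2, Axin2 and Rgmb, were lower in the knockout. The part of crypt cell content in the members' levels was not tested.

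Other cells that a scrape can hold, dividing or not, were measured the same way. The 12 lymphocyte markers summed to 164, 129 and 55.0 CPM in the knockouts, against 101, 332 and 381 CPM in the controls. Much of that sum was Jchain, at 98.4, 63.9 and 4.08 CPM in the knockouts, against 52.4, 150 and 309 CPM in the controls. Of 9 lymphocyte markers tested 1, Ptprc, was lower in the knockout (log2 fold change -1.78, adjusted p = 0.0024), and 0 were higher. The 6 germinal centre markers summed to 20.3, 32.5 and 24.4 CPM in the knockouts, against 14.8, 30.7 and 11.7 CPM in the controls. The B cell gene Ms4a1 had 29, 0 and 2 counts in the knockouts, against 8, 346 and 12 counts in the controls. Neither summed list had its highest value in knockout 423. The 5 globin and haem synthesis markers of red cells were each higher in the knockout, at 128, 35.5 and 543 CPM in sum, against 7.95, 14.8 and 22.2 CPM in the controls, with knockout 477 highest. Myeloid markers summed to 25.5, 24.3 and 28.2 CPM in the knockouts, against 18.1, 49.8 and 26.3 CPM in the controls, and stromal markers to 8.43, 7.01 and 23.3 CPM in the knockouts, against 9.84, 22.4 and 11.9 CPM in the controls. Of 7 myeloid markers tested 2 were higher and 2 lower in the knockout, and of 8 stromal markers tested 0 were called. No gene of these lists was at 0 in all libraries, and their part in the members' levels was not tested.

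Genes of the same pathway outside the 48 were called in both directions, beside 17.3% of all genes higher and 18.3% lower. Of 33 further S phase genes tested, 3 were higher, Rfc2 (0.81), Ubr7 (0.80) and Prim2 (1.36), and 3 were lower, Slbp (-0.57), Brip1 (-0.98) and Usp1 (-0.57), as log2 fold changes. Rfc2 is a further clamp loader subunit and Prim2 the large primase subunit. Of 46 further mitosis genes 2 were higher, the checkpoint gene Mad2l1 (1.39) and Cks2 (1.18), and 3 were lower, Ckap5 (-1.17), Cdc25b (-0.95) and the condensin gene Smc4 (-0.79). Of 15 further origin genes 3 were higher, the GINS subunit Gins4 (0.98), the licensing inhibitor geminin, Gmnn (0.83), and Orc4 of the origin recognition complex (0.77), and none was lower at the threshold, with 1 lower at an unadjusted p under 0.05 and 1 called lower by DESeq2. Each of these lists lost calls without single libraries, down to 0 higher in all 3. Without control 483 none of the further S phase genes was called higher, without knockout 423 or control 482 or control 483 none of the further mitosis genes, and without control 482 or knockout 477 none of the further origin genes. Without knockout 423, 6 of 46 further mitosis genes were lower, near the 13.2% of all genes lower in that fit. None of the 3 lower S phase genes was called there. Over the 6 fits with 1 library left out, Slbp missed the threshold in 6, and Brip1 and Usp1 in 5 each.

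Among genes that restrain the cycle, 4 CDK inhibitor genes were lower in the knockout, each of them in all 3 mice. They are 4 of 6 tested, where 18.3% of all genes were lower and 26.4% had every knockout below every control, and none was higher (0 at an unadjusted p under 0.05 in edgeR and 0 with DESeq2). p27, Cdkn1b, stood at 19.0, 21.3 and 19.0 CPM in the knockouts, against 40.5, 42.4 and 35.5 CPM in the controls (log2 fold change -0.997, SE 0.18, adjusted p = 0.0036). p57, Cdkn1c, stood at 1.56, 1.06 and 0.690 CPM in the knockouts, against 3.84, 5.77 and 4.65 CPM in the controls (-2.08, SE 0.38, adjusted p = 0.0035). In both genes every knockout lay well under the lowest control. Of the INK4 genes 2 were separated in the same way. p19, Cdkn2d, stood at 1.41, 1.13 and 1.32 CPM in the knockouts, against 4.57, 5.17 and 3.94 CPM in the controls (-1.82, SE 0.31, adjusted p = 0.0026), and p18, Cdkn2c, at 0.977, 0.864 and 0.805 CPM in the knockouts, against 2.42, 2.23 and 2.05 CPM in the controls (-1.33, SE 0.35, adjusted p = 0.017). With any 1 library left out, 3 or 4 of the 6 were called lower. Cdkn2c missed the threshold without knockout 476, knockout 477 or control 482 (adjusted p = 0.052, 0.062 and 0.056). Cdkn1c shares 30.7% of its exon bases with an antisense gene that had at most 7 counts in a library. The INK4 gene Cdkn2b, named after its values were seen, was not called, at 49.1, 79.5 and 64.0 CPM in the knockouts, against 58.4, 61.4 and 108 CPM in the controls (log2 fold change -0.24, adjusted p = 0.53), and Cdkn2a had too few counts to be tested. p21, Cdkn1a, the inhibitor that p53 induces, was not called either, at 294, 472 and 532 CPM in the knockouts, against 364, 278 and 415 CPM in the controls (log2 fold change 0.30, adjusted p = 0.43).

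Of 27 tested genes that control the step into S phase, 8 were lower and 1 was higher, beside 18.3% and 17.3% of all genes, and 12 of the 27 had every knockout below every control, as did 26.4% of all genes. The retinoblastoma gene Rb1 stood at 35.4, 41.6 and 36.1 CPM in the knockouts, against 81.9, 77.6 and 59.1 CPM in the controls (log2 fold change -0.95, adjusted p = 0.0068). Its relative p130, Rbl2, stood at 12.6, 17.0 and 12.8 CPM in the knockouts, against 30.4, 37.7 and 25.2 CPM in the controls (log2 fold change -1.14, adjusted p = 0.0053). Both genes restrain E2F targets, and in both the knockout mice lay close together below the controls. The cyclin E2 gene Ccne2, which promotes S phase entry, moved in the same direction, at 4.09, 2.83 and 4.31 CPM in the knockouts, against 12.0, 10.1 and 13.4 CPM in the controls (log2 fold change -1.67, adjusted p = 0.0018). Lower too were the E2F gene E2f5 (log2 fold change -1.47), the E2F partner Tfdp2 (-1.20) and Mxd4 (-1.42), a MAD-family antagonist of MYC. The other 2, named after their values were seen, were E2f3 (-1.14) and the MuvB subunit Lin52 (-1.37). Cdk4, the kinase partner of cyclin D, also named after its values were seen, was the 1 that was higher, at 56.9, 33.1 and 35.7 CPM in the knockouts, against 20.6, 14.9 and 28.4 CPM in the controls (log2 fold change 0.97, adjusted p = 0.028), with knockout 423 again the highest library. Cdk4 and Ccne2 share 19.7% and 17.4% of their exon bases with Tspan31 and Ints8 on the other strand. Ints8 had 230, 307 and 191 counts in the knockouts, against 859, 529 and 873 counts in the controls. Tspan31 had 2795, 2295 and 1949 counts in the knockouts, against 2970, 2522 and 4795 counts in the controls. Rbl2 shares 9.17% with Aktip and 11.8% with Gm45464, and Rb1 8.11% with Rcbtb2 and 6.78% with Lpar6. Reads of such pairs cannot be told apart. The Cdk4 call was lost without knockout 423 or without control 483. With any 1 library left out, 8 or 9 of the 27 were called lower.

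**Figure D4:**
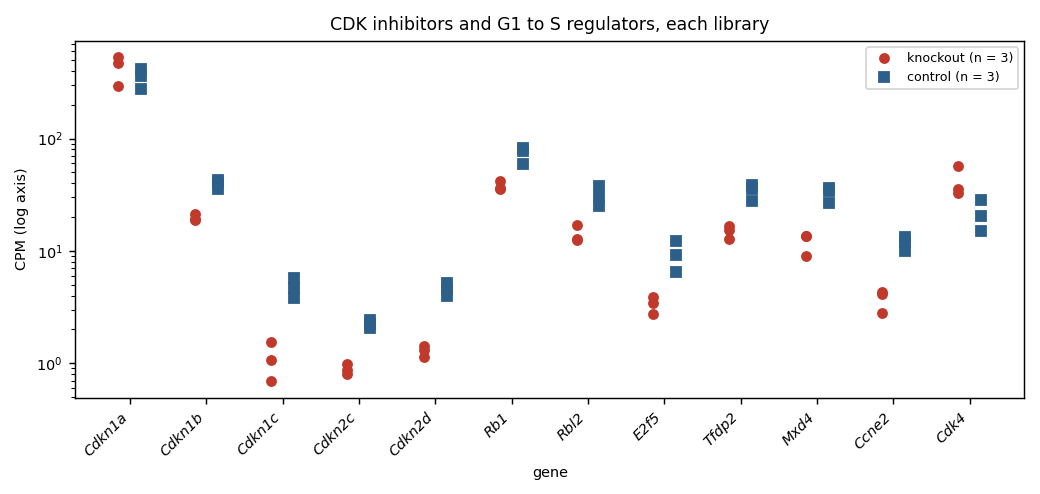
Each point is the CPM of 1 library on a log axis, circles for the 3 knockouts and squares for the 3 controls, for 5 CDK inhibitor genes, the 6 named S phase entry genes that were lower, and Cdk4. In Cdkn1b, Cdkn1c, Cdkn2c, Cdkn2d and the 6 entry genes every knockout lies below every control, in Cdk4 above, and in Cdkn1a the groups overlap.

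Gene length moved with the fold changes. Over 15018 genes the log2 fold change fell with exon length (Spearman rho = -0.37), and over the 48 members rho was -0.55, with -0.36 in the S phase and -0.72 in the mitosis members. These points share the same 6 libraries. Long members such as Mki67 and Cenpf were at the negative end and shorter ones such as Plk1 and Aurka at the positive end. With that trend, and the one with GC content, taken out of each library, the log2 fold change of Mki67 was -0.22 and that of Cenpf -0.09, and Pcna, Gins2 and Tyms were the 3 members called higher, Pcna at 1.65. Over all genes in that fit, 2378 of 15028 were higher and 2281 lower. Rfc4 was at 0.86 there (adjusted p = 0.074). The cause of the trend was not tested.

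**Figure D5:**
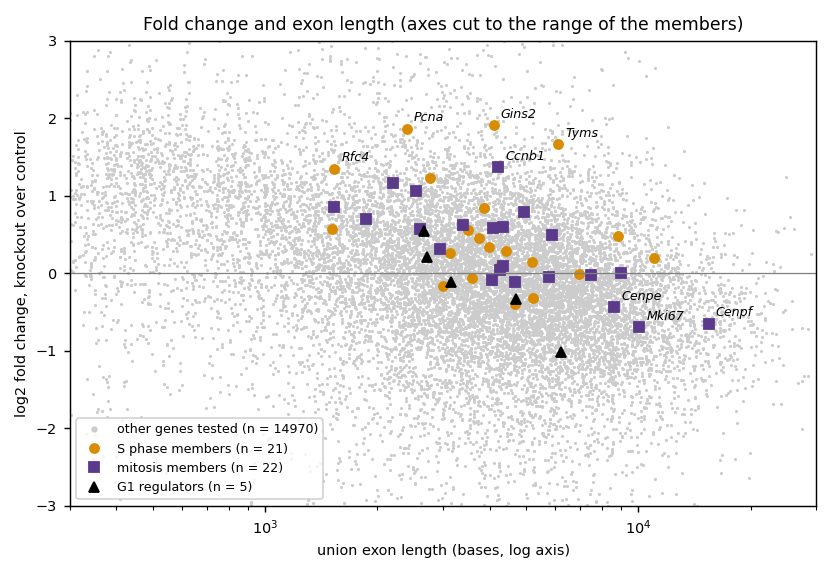
Each point is a gene, with union exon length in bases on a log axis against the log2 fold change, knockout over control, for 21 S phase members (circles), 22 mitosis members (squares), 5 regulators of S phase entry (triangles) and other tested genes (grey). The mitosis members slope downward from short to long genes, with Mki67 and Cenpf at the right, and Pcna, Gins2 and Tyms lie above the other members of like length.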

How the data were processed

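The members and the gene lists were chosen with earlier results of these data known. Of the members, every one called is named with all library values, as are Mki67, Top2a, Mcm2, Mcm5, Rrm2, Cdk1, Ccnb1, Plk1, Birc5, Cenpf, Ccnd1, Myc and E2f1. Beyond the members, Cdkn1a is named, and of each further pathway list up to 6 called genes with the smallest adjusted p.

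The authors deposited raw, whole-number read counts for each gene. The submitters' processing notes list build mm10, the read tools bcl2fastq, FastQC 0.11.7 and fastp 0.21.0, the aligner STAR 2.7.9a, the counter featureCounts (Subread 1.6.2) and DESeq2 1.23.10. Which annotation, filters and strand setting were used is not given in the sources used here. A variance-stabilised log2 table, also deposited, was not used. Libraries were polyA RNA, paired-end, from a TruSeq kit per the labels' protocols. Of 55450 identifiers 55190 matched GENCODE M21, which gave symbols, coordinates and union exon lengths.

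The main test ran in edgeR 4.0.16 under R 4.3.3, with filterByExpr (15028 genes kept), TMM scaling and the robust quasi-likelihood test of knockout against control, with Benjamini-Hochberg adjustment over all genes tested and a threshold of 0.05. The SE is the log2 fold change over the square root of F. Library means used log2 CPM with a prior count of 2 and were not tested. Libraries of 1 genotype differed by more than sampling noise gives (63.8 or more as chi-square over its degrees of freedom), so none was counted as a duplicate. Floors cover counting error only. The fit was tested on simulated data. Alternatives were 2 other scalings, the 20 most abundant genes left out, 2 other filters, DESeq2 1.42.0, removal of smooth length and GC content trends from each library, and each library left out in turn. One targeted gene and some marker genes are not reported here.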

Additional observations from a re-analysis of the deposited data

How the results depend on the processing

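Pcna was called higher under every alternative tried. Gins2, Rfc4 and Tyms were called in all but library totals (adjusted p = 0.073, 0.11 and 0.12), the fits without single libraries named above and, for Rfc4, the removal of the length and GC trend. The members called higher numbered 1 with library totals and 8 with no filter, where Aurka, Ccnb1, Plk1 and Rrm2 were added, and 2, Cdk2 and Mki67, were then lower. Over all genes, 1133 of 15028 were higher and 4554 lower with library totals, and 2811 of 27205 higher and 3469 lower with no filter. With DESeq2, 3020 of 15028 were higher and 2956 lower, and with the length and GC trend removed 2378 and 2281. With any 1 library left out, 1 to 5 members were higher and 0 to 4 lower, beside 1510 to 2958 genes higher and 1748 to 2982 lower. With library totals, 0 of the further S phase genes were higher and 5 lower, 0 of the further mitosis genes higher, 0 of the further origin genes higher and 1 lower, and 0 of the S phase entry genes higher. With no filter, 1 further S phase gene was lower, 4 further mitosis genes higher, 1 further origin gene lower and 2 entry genes higher. With DESeq2, 4 further mitosis genes were higher, 1 further origin gene lower and 3 entry genes higher. With the length and GC trend removed, 1 further S phase gene was lower, 1 further mitosis gene higher and 0 lower, and 5 entry genes higher. With 1 library left out, 0 to 3 further S phase genes were higher and 0 to 2 lower, 0 to 3 further mitosis genes higher and 0 to 6 lower, 0 to 4 further origin genes higher and 0 to 1 lower, and 0 to 3 entry genes higher. In the shorter promoter window 0% of mitosis members held E2F-type letters. The cause of these shifts was not tested.

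Some log2 fold changes that were not called changed sign. Mcm2 was at 0.014 with median-of-ratios size factors and at 0.012 with DESeq2. With the length and GC trend removed Mcm2 was at 0.37, E2f1 at 0.20, Foxm1 at 0.41, Kif11 at 0.22 and Tpx2 at 0.018. With library totals Mcm5 was at -0.061, Mcm7 at -0.13, Cdt1 at -0.16, Uhrf1 at -0.31, Rrm1 at -0.18, Tk1 at -0.23, Myc at -0.19, Aurkb at -0.050, Top2a at -0.37, Bub1 at -0.26 and Bub1b at -0.34. With no filter Top2a was at -0.034 and Bub1b at -0.0027. With 1 library left out, the log2 fold change crossed 0 in 34 members, with these lowest and highest values: Aurkb -0.89 to 0.82, Birc5 -0.59 to 1.01, Bub1 -1.52 to 0.54, Bub1b -1.03 to 0.59, Ccna2 -0.90 to 1.02, Ccnb1 -0.17 to 1.81, Ccnb2 -0.36 to 1.28, Ccnd1 -1.32 to 0.050, Cdc20 -0.59 to 1.14, Cdc6 -0.80 to 0.22, Cdk1 -0.69 to 1.23, Cenpa -0.78 to 0.88, Cenpe -1.89 to 0.48, Cenpf -2.24 to 0.19, E2f1 -0.86 to 0.35, Foxm1 -1.16 to 0.85, Kif11 -1.06 to 0.32, Kif20a -0.79 to 1.04, Mcm2 -0.61 to 0.31, Mcm3 -0.69 to 0.89, Mcm4 -0.56 to 0.25, Mcm5 -0.49 to 0.66, Mcm7 -0.11 to 0.59, Myc -0.45 to 0.66, Nusap1 -1.43 to 0.38, Plk1 -0.91 to 1.69, Pola1 -0.29 to 0.83, Prim1 -0.18 to 1.19, Rrm1 -0.43 to 0.47, Tk1 -0.67 to 0.48, Top2a -1.20 to 0.59, Tpx2 -1.30 to 0.46, Ube2c -0.51 to 1.08 and Uhrf1 -1.08 to 0.94.

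No paired analysis was possible because the animal numbers of the knockout and control mice are not shared. A fit without 1 library leaves 2 mice in a genotype. In knockout 477 a member had as few as 3 counts, so differences of the least counted members were limited by depth there.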
